A study of Mus musculus with 31 samples.

Results

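Ighm, Ccl17 and 4 genes of major histocompatibility complex (MHC) class II antigen presentation (Cd74, H2-Aa, H2-Ab1 and H2-Eb1) were followed in mouse brain, 6 of the 48795 genes in the count table. All 6 were found by symbol and all 6 passed the filter on low counts. Ighm and Ccl17 were selected on their small p-values in the comparison of control with deltamethrin, where they ranked 4 and 5 of 19529 genes tested, behind 3 clock genes. The class II genes were added by name because they mark antigen-presenting cells. The question was whether Ighm and Ccl17 move with those genes. Because the pair was chosen on this contrast, its group differences are given as a description, with no test. The gene just outside the 5 smallest p-values was Dsc3, a desmosomal cadherin, with a log2 fold change of 0.92 ± 0.23 (SE).

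Total RNA was sequenced from aliquots of homogenised brain in 31 samples, labelled by tissue and agent. Control samples (n = 13) and samples exposed during development to deltamethrin (n = 18), a pyrethroid insecticide that holds voltage-gated sodium channels open, had from 17570311 to 38680621 counts each. The labels give no strain, sex, age, dose or batch, and nothing says that the samples came from separate animals, so p-values measure the spread between these samples, which may be technical. Neural and glial markers were abundant, with averages of 1160 for Snap25 and 2727 for Mbp in CPM, the counts of a gene scaled to a common library size. The mitochondrial ribosomal RNAs took from 7.32 to 40.2% of counts, and control replicate 2, with the highest share and the lowest total, stood apart. It also had the highest Ccl17, H2-Ab1 and H2-Eb1 levels of the controls, so results that rest on it are given without it too.

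Ighm encodes the constant part of the immunoglobulin M heavy chain, the first antibody class that B cells make. Ccl17 is a chemokine secreted by dendritic cells that attracts T cells through the receptor Ccr4, and it has also been described in hippocampal neurons. H2-Aa pairs with H2-Ab1, and H2-Eb1 with an E alpha chain, to form the class II proteins that show peptides to helper T cells. Cd74, the invariant chain, escorts them through the cell, and the transactivator Ciita turns the genes on through a conserved promoter module of X and Y boxes. In healthy brain the class II genes mark border macrophages, dendritic cells and the few B cells of meninges and vessels, while resting microglia express little of them.

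Promoters are shown first, to set the class II genes H2-Aa and H2-Eb1 beside Ccl17. RefSeq promoter windows of 300 bases spanning the transcription start (GRCm38.p6) were at hand for 3 of the 6 genes. The windows are chr17:34287774-34288073, minus strand, for H2-Aa, chr17:34305617-34305916, plus strand, for H2-Eb1 and chr8:94810203-94810502, plus strand, for Ccl17. Each is printed 5′ to 3′. Capitals mark the X box core CTNGCAAC and the Y box CTGATTGG in the class II windows, and, in the Ccl17 window, TTC and GAA set 4 bases apart, an arrangement that STAT6 can bind. The motif letters were settled after the windows were read, and both strands were searched.
H2-Aa: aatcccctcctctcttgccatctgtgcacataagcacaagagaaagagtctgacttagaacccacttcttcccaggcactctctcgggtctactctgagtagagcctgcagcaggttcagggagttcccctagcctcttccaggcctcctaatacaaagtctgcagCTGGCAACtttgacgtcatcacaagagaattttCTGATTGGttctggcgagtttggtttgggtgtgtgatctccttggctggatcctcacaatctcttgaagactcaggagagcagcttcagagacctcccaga
H2-Eb1: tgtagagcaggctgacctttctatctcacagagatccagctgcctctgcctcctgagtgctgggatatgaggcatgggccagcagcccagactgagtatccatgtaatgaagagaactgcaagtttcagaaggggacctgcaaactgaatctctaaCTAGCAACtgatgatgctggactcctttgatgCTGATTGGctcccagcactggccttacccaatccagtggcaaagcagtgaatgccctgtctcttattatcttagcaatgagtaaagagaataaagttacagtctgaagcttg
Ccl17: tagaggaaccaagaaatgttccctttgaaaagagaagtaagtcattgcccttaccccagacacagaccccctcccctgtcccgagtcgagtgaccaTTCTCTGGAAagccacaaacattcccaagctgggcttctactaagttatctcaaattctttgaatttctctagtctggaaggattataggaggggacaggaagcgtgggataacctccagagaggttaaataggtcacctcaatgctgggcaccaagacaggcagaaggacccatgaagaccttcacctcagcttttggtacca

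The X box core began 84 bases before the start in H2-Aa and 94 in H2-Eb1, and the Y box 51 and 62 bases before it. Of 32851 promoter windows of this length, 4.1% held the Y box, 3.42% the X box core and 59 (0.18%) both. The Ccl17 window held neither of them. Of the class II relatives with a window, H2-Eb2 held both, H2-Oa the Y box only and H2-Ob the X box core only. H2-DMa, H2-DMb1 and H2-DMb2 held neither. The STAT arrangement of the Ccl17 window began 154 bases before the start and occurred in 6.95% of windows. Ighm, H2-Ab1 and Cd74 had no window at hand. A match is a match of letters and not a shown binding site. Because only exact letters, settled after the windows were read, were searched, a missing match does not show that a box is missing. For the same reason the matches in the printed windows were known beforehand. The shares of all windows therefore do not measure how unlikely those matches are.

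On GRCm38 Ighm lies on chromosome 12 from 113418558 to 113422730, minus strand (ENSMUSG00000076617, annotated as a constant gene of immunoglobulin). It was the most abundant of the 6 genes. Its level per length averaged 11.2 ± 1.94 CPM per kb of exon (SD, n = 13) in control samples and 8.69 ± 1.57 (SD, n = 18) in deltamethrin samples. Ccl17 (ENSMUSG00000031780, chromosome 8, 94810453 to 94812036, plus strand) followed with 2.20 ± 0.856 and 1.33 ± 0.369 CPM per kb. Cd74 (ENSMUSG00000024610, chromosome 18, 60803848 to 60812652, plus strand) had 0.778 ± 0.252 and 0.864 ± 0.232 CPM per kb. The 3 H2 genes lay lower on the same scale, and all sit within one stretch of chromosome 17.

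H2-Eb1 (ENSMUSG00000060586, 34305867 to 34316674, plus strand) had 0.517 ± 0.166 CPM per kb in control and 0.490 ± 0.160 in deltamethrin. H2-Ab1 (ENSMUSG00000073421, 34257689 to 34269419, plus strand) had 0.301 ± 0.0923 and 0.253 ± 0.0774. H2-Aa (ENSMUSG00000036594, 34282744 to 34287823, minus strand) was lowest with 0.173 ± 0.0698 and 0.168 ± 0.0513 CPM per kb. The order of the 6 levels was the same in both groups. Ighm lay above Ccl17 with no overlap in either group, and Ccl17 above Cd74 with no overlap in control, while in deltamethrin Ccl17 exceeded Cd74 in 15 of 18 libraries. The ranges of the neighbours from Cd74 down to H2-Aa overlapped in both groups. The 5′ end of H2-Eb1 overlaps the antisense gene Gm20513, which had 0 counts in every library, as did the E alpha pseudogene H2-Ea-ps.

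Ighm ranged in control from 16.8 CPM to 31.9 CPM with a median of 20.2, and in deltamethrin from 10.53 to 20.5 CPM with a median of 16.5. The groups overlapped, but 10 of 18 deltamethrin libraries lay below every control and 4 of 13 controls above every deltamethrin library. Control replicate 11 was far above the others. Control averaged 21.1 ± 3.65 CPM (SD, n = 13) and deltamethrin 16.4 ± 2.97 CPM (SD, n = 18), with a log2 fold change (deltamethrin over control) of -0.36 ± 0.09 (SE), and -0.30 without control replicate 11. Each library had from 220 to 868 Ighm counts, so counting error alone gives a coefficient of variation (CV) near 4.02% in control, against a measured 17.3%. In bulk tissue, fewer cells of a type and less RNA per cell cannot be told apart.

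Ccl17 ranged in control from 0.656 to 2.04 CPM with a median of 1.10, and in deltamethrin from 0.416 to 1.06 CPM with a median of 0.715. All 18 deltamethrin libraries lay below the control median, 7 of them below every control, and 7 of 13 controls lay above every deltamethrin library. Control averaged 1.13 ± 0.440 CPM (SD, n = 13) and deltamethrin 0.684 ± 0.190 CPM (SD, n = 18). The log2 fold change was -0.68 ± 0.17 (SE) over all libraries and -0.61 without control replicate 2, which had the highest level. Without control replicate 10 it was also -0.61. Counts were low, from 14 to 48 per library with a median of 25. The measured CV was 39.0% in control and 27.7% in deltamethrin, against 18.03% and 21.3% from counting alone.

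**Figure D1:**
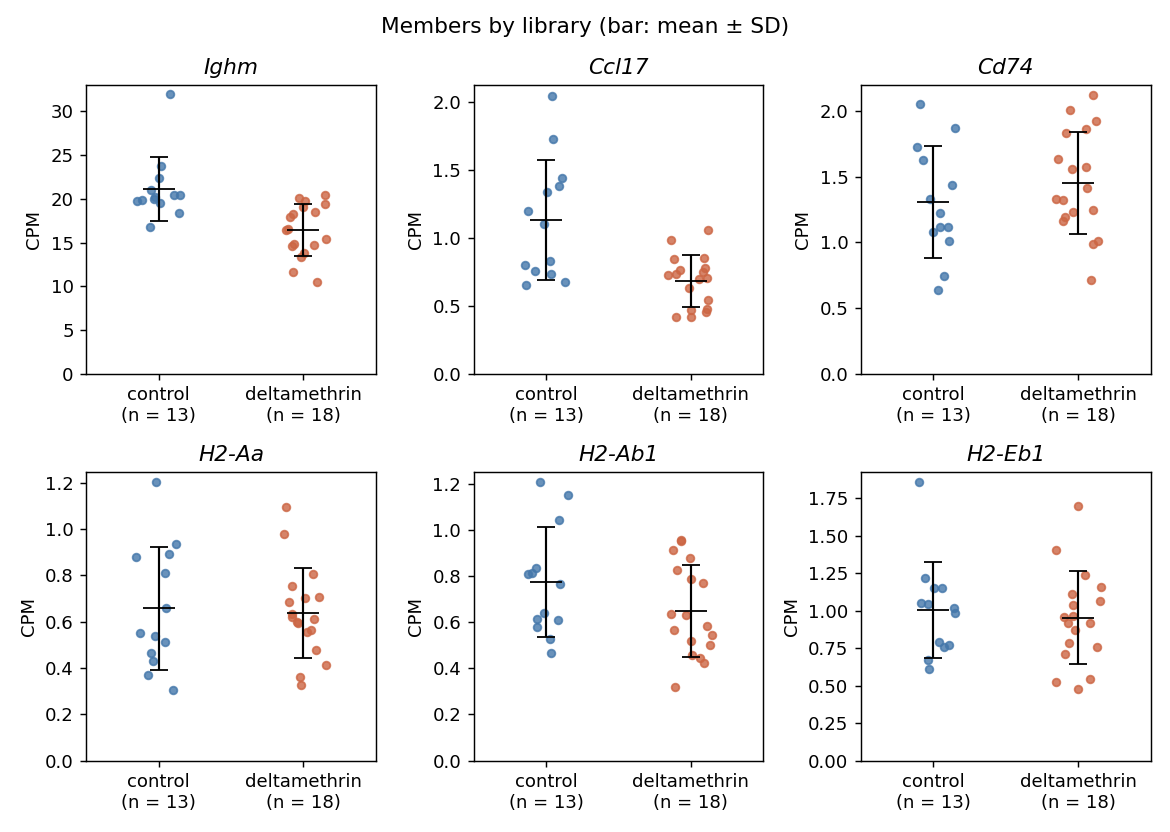
Level of each of the 6 genes in CPM (vertical axis, linear, from 0) by group. Points are libraries and bars the mean ± SD. Ighm and Ccl17, which were chosen on this contrast, sit lower in deltamethrin, with overlap. Of the 4 class II genes, added by name, Cd74, H2-Aa and H2-Eb1 cover like ranges in both groups. The range of H2-Ab1 lies somewhat lower in deltamethrin, with overlap.

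Cd74 covered nearly the same range in both groups. It ran from 0.638 to 2.06 CPM in control (median 1.23) and from 0.717 to 2.12 CPM in deltamethrin (median 1.37), and 17 of 18 deltamethrin libraries lay inside the control range. The log2 fold change was 0.13 ± 0.15 (SE), with a 95% interval from -0.18 to 0.45 and an adjusted p of 0.853 (edgeR). Its direction was opposite to those of Ighm and Ccl17.

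H2-Aa, the class II alpha chain, ran from 0.305 to 1.203 CPM in control (median 0.552) and from 0.326 to 1.10 CPM in deltamethrin (median 0.616). All 18 deltamethrin libraries lay inside the control range. The log2 fold change was -0.05 ± 0.18, with a 95% interval from -0.42 to 0.32 (edgeR adjusted p = 0.949), and it became 0.07 without control replicate 9, the highest control.

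H2-Ab1, the beta chain that pairs with H2-Aa, ran from 0.464 to 1.21 CPM in control (median 0.765) and from 0.318 to 0.955 CPM in deltamethrin (median 0.608). It had the lowest fold change of the class II genes, -0.23 ± 0.16 (SE), with 4 of 18 deltamethrin libraries below every control and 3 of 13 controls above every deltamethrin library. The 95% interval was from -0.56 to 0.11 and the adjusted p 0.813 (edgeR). Without control replicate 9 the value was -0.15, and without control replicate 2, the highest control, it was -0.18.

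H2-Eb1, the other beta chain, ran from 0.610 to 1.86 CPM in control (median 1.02) and from 0.478 to 1.70 CPM in deltamethrin (median 0.936). The groups covered like ranges, with 15 of 18 deltamethrin libraries inside the control range. Its log2 fold change was -0.05 ± 0.16, with a 95% interval from -0.38 to 0.28 (edgeR adjusted p = 0.946). The sign turned to 0.02 without control replicate 2, which had the highest level, and to 0.01 without scaling factors.

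Of the 4 class II genes, 0 passed an adjusted p-value of 0.05 and 0 had an unadjusted p-value under 0.05. Over all 19529 genes tested 0 (0%) passed after adjustment with edgeR while 853 (4.37%) fell under 0.05 before adjustment, 462 lower (2.37%) and 391 higher (2%). DESeq2 and limma voom also gave 0 genes after adjustment, with 986 and 847 unadjusted. Summed over the 4 genes, control averaged 3.74 ± 0.714 CPM (SD, n = 13) and deltamethrin 3.69 ± 0.832 CPM (SD, n = 18), from 45 to 191 counts per library. That the class II genes missed the threshold does not show that they were equal: the intervals leave room for differences as large as the one seen for Ighm in H2-Aa, H2-Ab1 and H2-Eb1.

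The wider machinery of class II presentation gave no call either. Of 18 listed genes (the transactivator and its partners, peptide loaders, proteases and costimulators), 14 were tested, 0 passed after adjustment and 0 fell under 0.05 before adjustment. The list's fold changes split evenly, 7 above 0 and 7 below, with a median of 0.00040 on the log2 scale beside 0.0014 for all genes tested. For the transactivator Ciita, control averaged 1.13 ± 0.337 CPM and deltamethrin 1.19 ± 0.397 CPM, with a log2 fold change of 0.06 ± 0.17 (SE). The lysosomal proteases Lgmn (55.9 CPM on average) and Ctss (32.8 CPM) were the most abundant, with fold changes of 0.04 ± 0.09 and 0.05 ± 0.08. The smallest p-values belonged to H2-DMb1 and H2-DMa, the subunits of the peptide loader, at -0.21 ± 0.12 and -0.11 ± 0.07 (edgeR adjusted p 0.813 for each).

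**Figure D2:**
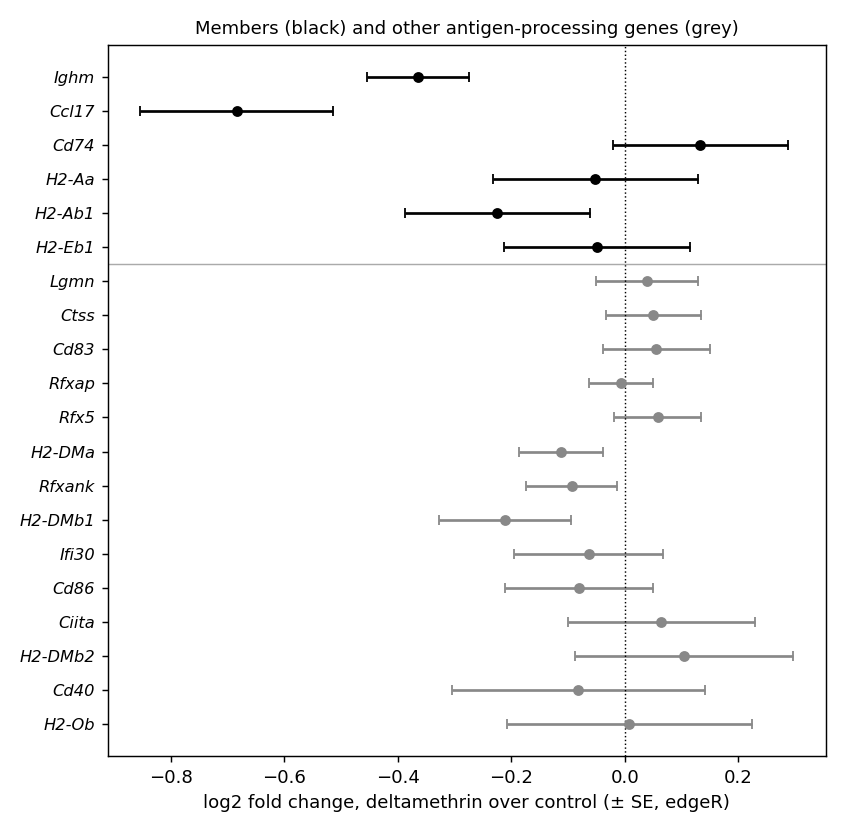
Log2 fold change of deltamethrin over control (horizontal axis) with its SE from edgeR, for the 6 genes (black) and 14 further antigen-processing genes (grey, from high to low level). Ighm is at -0.36 and Ccl17 at -0.68, and the class II genes run from -0.23 to 0.13. Ighm and Ccl17 were chosen on this contrast and the class II genes by name, so their distance follows from the choice.

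Defining genes of B cells were sparse beside Ighm. Over the 31 libraries it had 17518 counts. The kappa light chain constant gene Igkc had 178, so there were 98.4 Ighm counts for each Igkc count. The B cell receptor component Cd79a had 127 counts, the B cell surface protein Ms4a1 had 22, and the joining chain Jchain of secreted antibody had 145. Ms4a1 was at 0 in 18 libraries. The gene next to Ighm, Ighd, which mature B cells produce from the same transcript, had 201 counts.

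Variable segments were nearly empty too. The 185 heavy chain variable genes of the table (Ighv) held 55 counts in all, spread over 29 of them, and the 160 kappa variable genes (Igkv) held 265. The 4 heavy chain joining genes (Ighj) had 167 counts, of which Ighj1 had 111. The segments, Ighd, Cd79b and the lambda genes were chosen after their values were seen. Constant genes of neighbouring antibody classes resemble each other, so reads could be split between them, and Ighg2c, an immunoglobulin G constant gene, was the only other one with a sizeable count (2436, or 2.54 CPM). Its log2 fold change was -0.25 ± 0.15 (SE, edgeR adjusted p = 0.813).

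**Figure D3:**
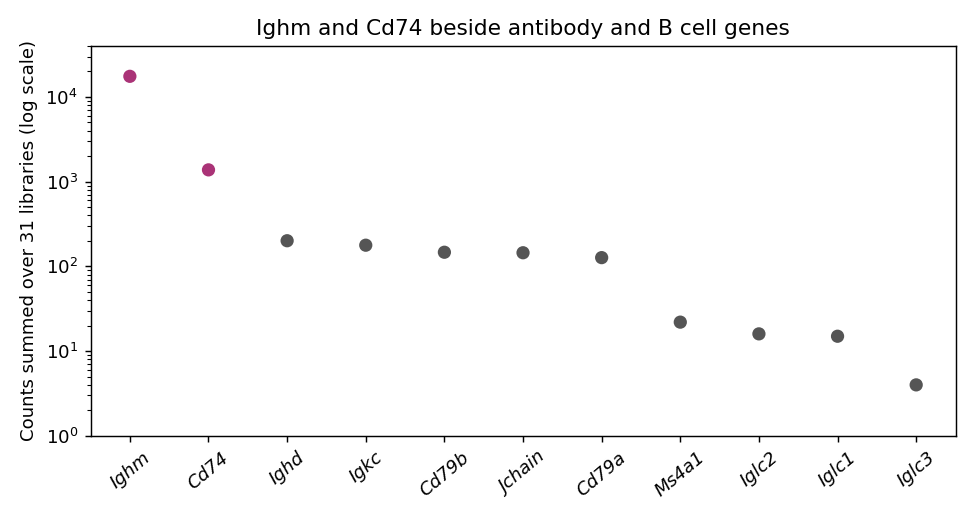
Counts summed over the 31 libraries (vertical axis, log scale) for Ighm and Cd74 and for 9 antibody and B cell genes picked from the lists. Ighm reaches 17518, while the 9 run from 4 (Iglc3) to 201 (Ighd). Genes of the same lists that are not plotted reach 1173 (Fcer2a) and 2436 (Ighg2c).

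As a list, 4 of 17 B cell markers and 3 of 11 plasma cell markers had enough counts to be tested, and 0 passed after adjustment. The 17 B cell genes summed to between 3.24 and 5.57 CPM per library in control and between 3.32 and 6.14 CPM in deltamethrin, far less than Ighm alone. Iglc3 (4 counts), Iglc1 (15) and Iglc2 (16) were at or near 0. The tested B cell genes were Fcer2a, Bank1, Cr2 and Pax5, of which Cr2, a complement receptor, had an unadjusted p of 0.0445 and a log2 fold change of 0.52 ± 0.25 (edgeR adjusted p = 0.813), in the opposite direction to Ighm. The plasma cell list averaged a sum of 6.15 ± 0.878 CPM in control and 6.07 ± 0.986 CPM in deltamethrin.

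The partners of Ccl17 were sparse too. Ccl22, the neighbouring chemokine that shares its receptor, had 133 counts over the 31 libraries against 796 for Ccl17. The receptor Ccr4 had 4 counts and was at 0 in 27 libraries. Dendritic cell markers differed widely in level: Xcr1 had 68 counts and Ccr7 80, and 6 of the 11 listed genes averaged under 0.2 CPM. Flt3 (6.73 CPM), Zbtb46 (18.01 CPM) and Siglech (8.6 CPM), which is also on the microglial list, were higher. Fscn1, an actin bundler that neurons also express, reached 122.4 CPM. Of the 5 dendritic cell genes tested 0 passed, and Batf3, a dendritic cell transcription factor, had the smallest p-value with a log2 fold change of -0.29 ± 0.17 (edgeR adjusted p = 0.813).

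Markers of other cells that could carry these genes were also set beside them. Summed microglial genes averaged 255.8 ± 25.5 CPM in control samples and 256.1 ± 16.4 CPM in deltamethrin samples, with 1 of 12 at an unadjusted p-value under 0.05, beside 4.37% of all genes tested (Tmem119, -0.15 ± 0.06, edgeR adjusted p = 0.813). Of the border macrophage list 6 of 9 genes were tested and 0 had an unadjusted p-value under 0.05, with a median log2 fold change of -0.11. In the choroid plexus list all 11 genes lay below 0, with 2 at an unadjusted p-value under 0.05, beside 2.37% of all genes tested that were lower (Ttr at -0.46 ± 0.21 and Folr1 at -0.49 ± 0.20, edgeR adjusted p 0.813 for each). Its summed level ran from 273.7 to 1323 CPM in control and from 252.9 to 736.1 CPM in deltamethrin. In the blood list all 5 genes lay below 0, 0 at an unadjusted p-value under 0.05, with a median of -0.29. Alas2, the only gene of that list that is not a globin, was near 0 (-0.0094 ± 0.14). The summed level of the list ran from 492.2 to 1670 CPM in control and from 380.5 to 1242 CPM in deltamethrin. Fold changes of regional markers had both signs, and 0 passed after adjustment. All 9 cerebellar genes lay above 0 (median 0.26, with Calb1 at 0.21 ± 0.07, edgeR adjusted p = 0.813) and all 8 striatal genes below 0 (median -0.16, with Gpr6 at -0.30 ± 0.13, edgeR adjusted p = 0.813). Of the 10 hippocampal genes 7 lay below 0, with a median of -0.07 and 0 at an unadjusted p-value under 0.05. Across libraries, with group means removed, the hippocampal genes Spink8 and Neurod6 had r = 0.57 and 0.48 with Ccl17, while Wfs1 had -0.51, and the list's median r with Ccl17 was -0.24. The part of these regions and of choroid plexus in the differences of Ighm and Ccl17 was not tested.

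To ask whether the genes rise and fall together from library to library, each gene's log2 CPM was taken as a deviation from its group mean, so that the group difference did not enter. Of the 15 pairs of the 6 genes, 0 had an adjusted p-value under 0.05 over the 15 for Pearson's r (permutation test), and 1 had an unadjusted one. Ighm with the class II genes gave r from -0.03 (Cd74) to 0.20 (H2-Eb1). Ccl17 with them gave r from -0.28 (Cd74) to 0.18 (H2-Ab1, 0.07 without control replicate 2). The 8 adjusted permutation p-values ran from 0.496 to 0.938. Spearman's rho for these pairs ran from -0.34 (Ccl17 with Cd74) to 0.22 (Ighm with H2-Eb1), with adjusted permutation p-values from 0.393 to 0.920.

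The correlation of Ighm with Ccl17 did not pass. Over the 31 libraries r was 0.25 (95% interval -0.12 to 0.56, two-sided permutation p = 0.166, adjusted 0.496 over 15 pairs) and rho 0.31 (permutation p = 0.0786, adjusted 0.393). It was 0.26 within control and 0.26 within deltamethrin, and 0.12 without the 2 libraries farthest from the median of Ighm by their deviation from the group mean, control replicate 11 and deltamethrin replicate 1. With the mitochondrial share removed it was -0.14. Pooled without removing group means r was 0.52 (permutation p adjusted 0.0434). That pooled value holds the group difference for which both genes were chosen.

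**Figure D4:**
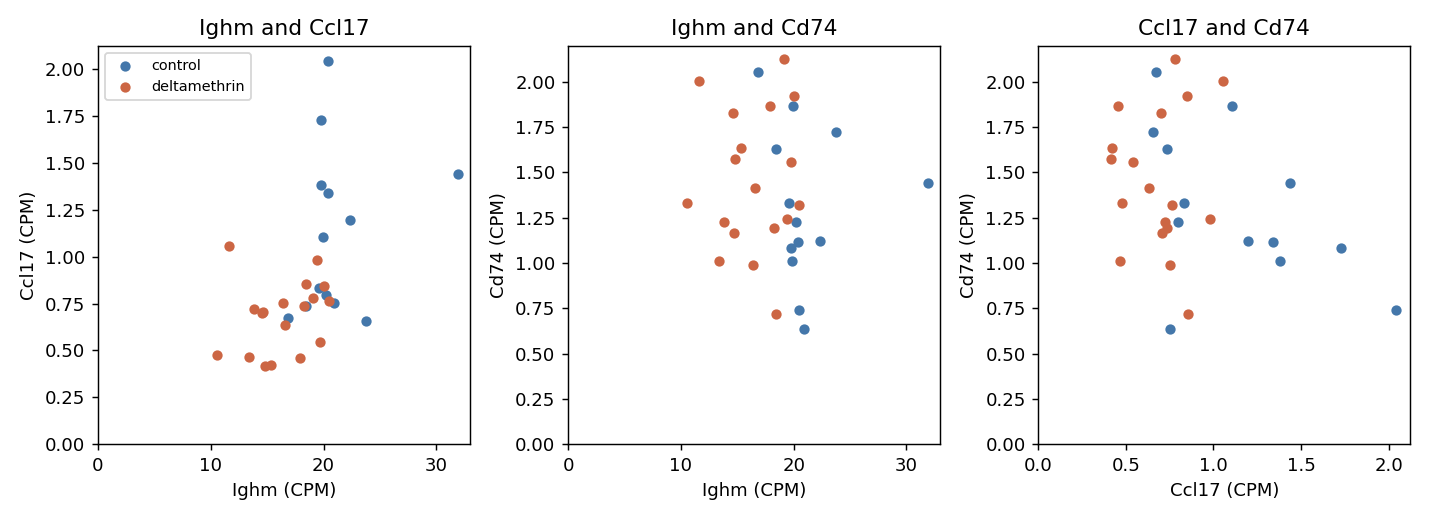
Level in CPM (both axes linear, from 0) of Ighm against Ccl17, Ighm against Cd74 and Ccl17 against Cd74, each point a library coloured by group. After group means were removed r was 0.25, -0.03 and -0.28.

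For Ccl17 with Cd74 r was -0.28 (95% interval -0.58 to 0.09, permutation p = 0.151, adjusted 0.496) and rho = -0.34 (permutation p = 0.0699, adjusted 0.393). The value was -0.46 within control, -0.07 within deltamethrin and -0.13 without the 2 libraries farthest from the median of Ccl17, control replicates 2 and 9. Without control replicate 2 alone it was -0.17, and with the mitochondrial share removed it turned to 0.06.

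Among the class II genes 0 pairs passed after adjustment. All 6 of their pairs had a positive r, from 0.16 (Cd74 with H2-Eb1) to 0.37 (H2-Aa with H2-Eb1). Cd74 with H2-Eb1 differed in sign between groups, with -0.34 within control and 0.54 within deltamethrin, a difference that was not tested, and it was 0.0068 without deltamethrin replicate 8 and 0.33 without control replicate 2. For H2-Aa with H2-Eb1, the pair whose promoters are printed above, r was 0.37 (95% interval 0.01 to 0.64, permutation p = 0.0444, adjusted 0.496) and rho 0.44 (permutation p = 0.0156, adjusted 0.234). It was 0.13 within control and 0.58 within deltamethrin, and 0.29 without the 2 libraries farthest from the median of H2-Aa, control replicates 9 and 12. Without control replicate 2 alone it rose to 0.54 and passed (permutation p adjusted 0.0255). That library had low H2-Aa (0.372 CPM) beside the highest H2-Eb1 (1.86 CPM).

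**Figure D5:**
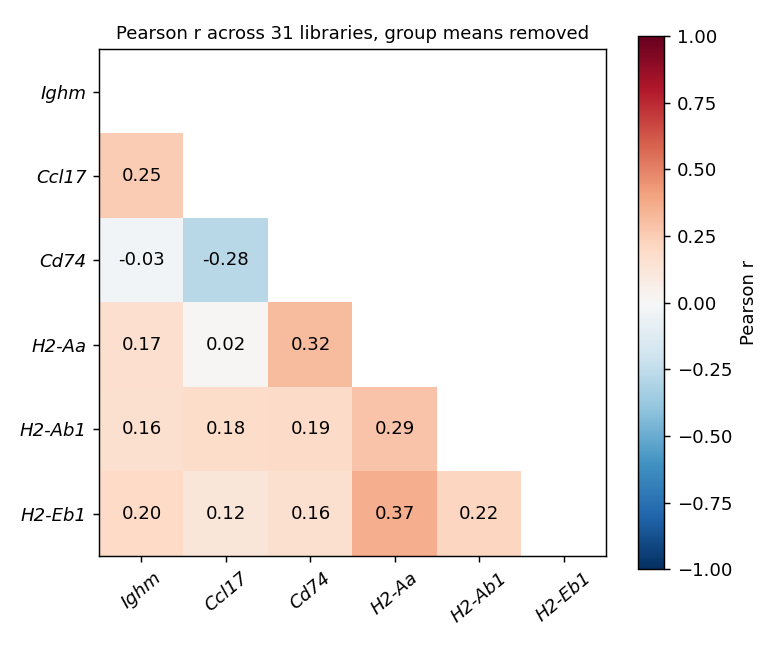
Pearson r over 31 libraries for each pair of the 6 genes, after group means were removed (colour scale from -1 to 1, value printed in each cell). The class II block at the lower right holds r from 0.16 to 0.37, and the columns of Ighm and Ccl17 hold -0.28 to 0.25.

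Low counts limit what these correlations can show. The CV from counting alone was 22.7% for H2-Aa in control against a measured 40.3%, and 21.97% against 30.6% in deltamethrin. For Cd74 it was 15.8% against 32.4% and 14.5% against 26.8%. Summing the 4 class II genes, which gives a median of 109 counts per library, left r at 0.15 with Ighm and 0.02 with Ccl17, given here as a description.

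Ighm and Ccl17 did vary with measures of library composition, in relations that were chosen after the data had been seen. How many of all genes do so was not counted, so the relations are not shown to be particular to these genes. With the log2 share of mitochondrial ribosomal RNA, again after group means were removed, Ighm had r = 0.51 (permutation p = 0.00283, adjusted 0.00849 over 12 relations) and rho = 0.61 (permutation p = 0.00034, adjusted 0.00156). Ccl17 had r = 0.67 (permutation p = 7e-05, adjusted 0.00084) and rho = 0.64 (permutation p = 0.00017, adjusted 0.00156). Leaving out control replicate 2 and deltamethrin replicate 8, whose log2 shares deviated most from their group means, gave 0.59 for each. Within control and deltamethrin r was 0.36 and 0.65 for Ighm and 0.79 and 0.52 for Ccl17.

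Cd74 went the other way, with r = -0.47 (permutation p = 0.0109, adjusted 0.0261) and rho = -0.40 (permutation p = 0.0304, adjusted 0.0730), and -0.27 without those 2 libraries, on which this relation therefore rests. Within control r was -0.62, and within deltamethrin -0.29. The H2 genes had r from -0.00068 to 0.20 with the share, and 0 of the 3 passed.

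The blood genes, 4 globin genes and the erythroid heme enzyme Alas2, gave a similar pattern. With their mean log2 CPM Ighm had r = 0.56 (permutation p = 0.00096, adjusted 0.00384) and rho = 0.57 (permutation p = 0.00088, adjusted 0.00264). Ccl17 had r = 0.61 (permutation p = 0.00035, adjusted 0.0021) and rho = 0.62 (permutation p = 0.00039, adjusted 0.00156). Without the 2 farthest libraries, control replicate 2 and deltamethrin replicate 10, these were 0.62 and 0.55. Within control and deltamethrin r was 0.38 and 0.71 for Ighm, and 0.87 and 0.31 for Ccl17. Taken singly, the globin genes had r from 0.54 to 0.63 with Ighm and from 0.60 to 0.62 with Ccl17. Alas2 had only 0.16 and 0.35, so the pattern is mainly that of the globin genes.

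H2-Ab1 (r = 0.40, permutation p = 0.0273, adjusted 0.0486) and H2-Eb1 (r = 0.40, permutation p = 0.0284, adjusted 0.0486) passed with the blood genes by r but not by rho (0.32 and 0.28, adjusted permutation p 0.151 and 0.205). Both fell away without the 2 libraries, to 0.22 and 0.10, and so rest on them. Cd74 and H2-Aa did not pass.

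With the mitochondrial share as a covariate the log2 fold changes were -0.36 for Ighm and -0.63 for Ccl17, and with the blood gene level -0.31 and -0.52. When either measure was removed from the library values, r between Ighm and Ccl17 turned negative (-0.14 with each). The 12 relations, the blood covariate and its removal were chosen after the data had been seen.

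The genes whose library pattern was most like each gene were named by the highest r among tested genes with a mean of at least 1 CPM, as a description over the 31 libraries, which share depth and composition. For Ighm they were Aptx, a DNA repair enzyme (r = 0.77), the caspase Casp6 (0.75), the nucleotide phosphatase Ntpcr (0.71), the ribosome assembly factor Mrto4 (0.71) and the synaptic complexin Cplx3 (0.71). For Ccl17 they were Tmem251 (0.78), the Notch target Hes1 (0.75), the mitochondrial protein Chchd5 (0.74), Gm28578 (0.74) and the lysosomal macrophage protein Cd68 (0.74). For Cd74 they were Sfn (0.62), the lectin Lgals9 (0.58), the splicing factor Aar2 (0.57), Ston1 (0.57) and Zfp512 (0.57). Among 19528 genes of any level, Ccl17 ranked 5627 by r with Ighm and Cd74 ranked 10267. By r with Ccl17, Ighm ranked 6280 and Cd74 13708.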

How the data were processed

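Total RNA libraries of 13 control and 18 deltamethrin brain samples were compared, grouped by the agent label. Replicate numbers follow sample order and pair nothing. The authors deposited raw counts per Ensembl gene; per the submitters' processing notes Trimmomatic, HISAT2, SAMtools and MultiQC were used with GRCm38. The counting tool, annotation and use of strand are not given in the sources used here. Total counts ran from 17570311 to 38680621. The most alike of 465 library pairs still differed beyond sampling noise (chi-square per degree of freedom 5.66).

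Genes were kept with filterByExpr of edgeR 4.0.16 (R 4.3.3; minimum count 10, minimum total 15; 19529 genes), scaled by TMM and compared with edgeR's quasi-likelihood test (robust=TRUE, no covariate, Benjamini-Hochberg over all genes). Fold changes are deltamethrin over control. CPM uses TMM-scaled library sizes, and log2 CPM a prior count of 2. CPM per kb uses the union of GENCODE M21 exons (GRCm38), and coordinates are from there. Correlations used two-sided permutation tests with 100000 resamples within groups (20000 when 1 sample was left out), adjusted over the 15 pairs, and Fisher's z for 95% intervals. Both pipelines were tested on simulated data. DESeq2 1.42.0 and limma 3.58.1 were alternatives.

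Genes named were the 6 members, their 5 nearest genes by r, set defining markers, and from each list the most abundant genes and those of smallest p-value. Other genes named (C1qa, C1qb, segments, Cd3 genes and the like) were chosen after their values were seen. Members and lists were chosen with earlier results of these data known.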

Additional observations from a re-analysis of the deposited data

How the results depend on the processing

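No paired analysis was possible because numbers given in sample order pair nothing. Across 10 alternatives and 31 fits that each left out 1 sample, 0 genes passed an adjusted p-value of 0.05 (smallest adjusted p 0.0521, edgeR without control replicate 5). The log2 fold changes of Ighm and Ccl17, which were chosen on this contrast, ran from -0.37 to -0.31 and from -0.68 to -0.52, and from -0.39 to -0.30 and from -0.73 to -0.61 with 1 sample left out. The filter at a mean count of 50 kept only Ighm of the 6 genes. H2-Eb1 changed sign without scaling factors (0.0075), without the library of lowest total (0.0227) and with the blood covariate (0.031). Left-out samples gave -0.11 to 0.0227 for H2-Eb1, -0.11 to 0.067 for H2-Aa, -0.28 to -0.15 for H2-Ab1 and 0.07 to 0.21 for Cd74.

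Several values of r changed sign, among them that of Ighm with Ccl17 (0.25 as reported) and of Ccl17 with Cd74 (-0.28). Without scaling factors Ighm with Cd74 was 0.31 and Ccl17 with H2-Eb1 -0.0812. With the mitochondrial share removed Ighm with Ccl17 was -0.14, Ighm with Cd74 0.28, Ccl17 with Cd74 0.0552 and Ccl17 with H2-Eb1 -0.0140. With the choroid plexus level removed Ccl17 with H2-Aa was -0.0193. Without the library of lowest total Ccl17 with H2-Eb1 was -0.0429. With the blood level removed Ighm had -0.14 with Ccl17, 0.16 with Cd74, -0.0888 with H2-Ab1 and -0.0252 with H2-Eb1, and Ccl17 had -0.13 with H2-Aa, -0.0847 with H2-Ab1 and -0.16 with H2-Eb1. The cause was not tested. With no centring Ighm with Ccl17 reached 0.52 and fell under the threshold, but that value holds the group difference for which both genes were chosen. With group means removed, H2-Aa with H2-Eb1 passed without control replicate 2 (0.54). With 1 sample left out the sign changed for Ighm with Cd74 (-0.0789 to 0.0567), Ccl17 with H2-Aa (-0.0584 to 0.14) and Ccl17 with H2-Eb1 (-0.0429 to 0.20). Counts of 4 to 48 per library for Ccl17 and the H2 genes limit what could be detected.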

Other observations

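In the T and NK cell list 3 of 10 genes were tested, and they differed among themselves. Trbc2, a T cell receptor constant gene, had 11242 counts over the 31 libraries (12.1 CPM) and Cd4 6595 (6.84 CPM), while the T cell receptor partners Cd3e, Cd3d and Cd3g had 50, 43 and 22 and Cd8a 60. Cd4 had a log2 fold change of -0.31 ± 0.14 (SE, unadjusted p = 0.0324, adjusted 0.813 by edgeR) and Trbc2 -0.28 ± 0.16 (adjusted 0.813), while Trac, the alpha chain constant gene, had 0.23 ± 0.21 (adjusted 0.827). As a description over the 31 libraries with group means removed, Trbc2 had r = 0.65 with Ighm, 0.71 with Ccl17 and -0.36 with Cd74. Cd4 had 0.15 with Ighm and 0.04 with Ccl17, and Trac -0.02 and -0.27. Trac, Cd3e, Cd3d, Cd3g and Cd8a were chosen after their values were seen.

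Other antigen-presentation genes gave r of both signs with Ighm and Ccl17. With Ighm the loader subunits H2-DMa, H2-DMb1 and H2-DMb2 had 0.51, 0.53 and 0.24, and Ciita -0.47. With Ccl17 the same subunits had 0.47, 0.41 and 0.47 and the costimulator Cd86 0.47, while Ciita had -0.37 and Lgmn -0.64. Of the dendritic cell list, Batf3 had 0.61 with Ccl17, Flt3 -0.40 and Zbtb46 -0.47. Over the 14 antigen-processing genes tested the median r was 0.15 with Ighm and 0.13 with Ccl17. Medians of other lists, in the same order, had both signs. They were -0.21 and -0.40 for the 5 dendritic cell genes tested, and -0.17 and -0.14 for the 6 border macrophage genes. The 5 dendritic cell genes include Fscn1, which neurons also express, and Siglech, which is also on the microglial list. Xcr1 and Ccr7 had too few counts to be tested, so the dendritic cell medians leave them out. For the 4 B cell genes the medians were -0.20 and -0.29, and for the 12 microglial genes 0.26 and 0.12. The monocyte and neutrophil list had 0.57 and 0.45, with only 2 of its 9 genes tested. Of these, Lyz2 had r = 0.59 with Ighm and 0.56 with Ccl17, and Ly6c2 0.55 and 0.33. H2-DMb2 and Cd86 were chosen after their values were seen. Among microglial genes C1qa (27.3 CPM) and C1qb (30.96 CPM), subunits of the first complement component, had r = 0.60 and 0.62 with Ighm and 0.42 and 0.26 with Ccl17, while Csf1r (45.5 CPM), the growth factor receptor of microglia, had -0.52 and -0.57. C1qa and C1qb were chosen after their values were seen. These values are descriptions, and the libraries share composition.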
